A study of Mus musculus with 2 samples.

Results

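DC3 is the name the authors gave to a small class of dendritic cells in the inflamed mouse abdominal aorta, and it holds the 59 cells that carry this name in the deposited cell table, of 10477 cells in all. The study profiled single cells from the abdominal aorta of C57BL/6J wild-type mice 2 weeks after injection of LCWE, a cell wall extract of Lactobacillus casei that causes a vasculitis modelling Kawasaki disease, or of PBS. One droplet library was made from a pool of 7 LCWE aortas (5091 cells, 42275754 unique molecular identifiers, or UMIs, each counting 1 captured transcript). The other was made from a pool of 9 PBS aortas (5386 cells, 62600808 UMIs). With 1 pooled library per treatment and cells that are not replicates, no comparison below has a test. Intervals are 95% intervals that cover counting error only.

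All 59 DC3 cells came from the LCWE library, where they made up 1.16% of cells (exact Clopper-Pearson interval 0.883 to 1.49%). In the PBS library 0 of 5386 cells carried the name, which allows a share of up to 0.0557% when 0 is read as under 3 cells, and the exact 95% upper bound was 0.0685%. Fewer cells of a type and a different recovery from the digested tissue cannot be told apart in these data. DC3 cells were 6.50% of the 908 LCWE cells in the authors' broad class of monocytes, macrophages and dendritic cells, called mononuclear phagocytes here (4.98 to 8.30%). They were 23.2% of the 254 cells named DC3 or DC2 (18.2 to 28.9%). The PBS library held 18 mononuclear phagocytes, 3 of them DC2 cells. These are too few for the absence of DC3 cells there to set their share of that class. The other mononuclear phagocytes were 849 LCWE cells, among them 195 DC2 cells, 281 cells named Mono1 and 282 named Mac1. A DC3 cell had from 2297 to 19773 UMIs with a median of 7304, against a median of 8992 in DC2 cells. Of 8 droplet barcodes that occurred in both libraries, 0 belonged to a DC3 cell.

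Dendritic cells sample antigen in tissue and, once activated, leave through lymphatic vessels for the draining lymph node, where they present antigen to T cells. On activation they gain the chemokine receptor CCR7, which guides them along CCL19 and CCL21, and the actin-bundling protein fascin. They also lose much of their machinery for taking up microbes and debris and gain costimulatory and inhibitory ligands for T cells. Cells in this state, from either conventional lineage, are often called mature or migratory dendritic cells.

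The 3 genes given as markers of the class were found in it. Ccr7 had a lowest, median and highest cell of 0, 35 and 69 UMIs in DC3, against 0, 0 and 35 in DC2. Fscn1, which encodes fascin, had 0, 15 and 50 UMIs in DC3, against 0, 0 and 45 in DC2. Zbtb46, a transcription factor of conventional dendritic cells, had 0, 0 and 2 UMIs in DC3, against 0, 0 and 4 in DC2. The 2 classes overlapped in range, but DC3 cells had a high Ccr7 median and most DC2 cells had none, while Zbtb46 was sparse in both. Ccr7 was found in 58 of 59 DC3 cells and Fscn1 in 50, all of which also had Ccr7. Only 1 DC3 cell had neither.

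**Figure D1:**
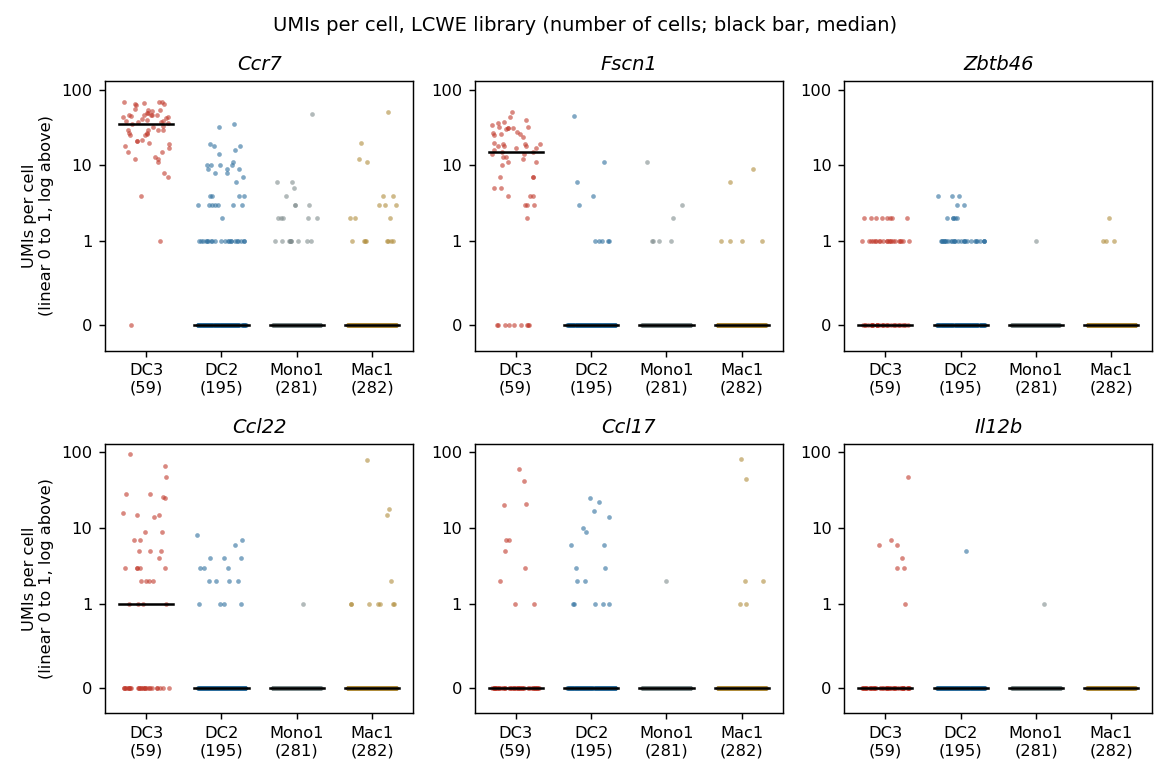
UMIs per cell (linear from 0 to 1, log above) of 6 genes in the DC3, DC2, Mono1 and Mac1 cells of the LCWE library. Each point is a cell and the black bar the median. Ccr7 and Fscn1 fill the DC3 column (medians 35 and 15), while Ccl22, Ccl17 and Il12b are spread over 32, 11 and 8 of the 59 DC3 cells.

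Summed over cells, Ccr7 reached 4535 UMIs per 1000000 UMIs of the class (CPM) in DC3 (4340 to 4737), against 168 in DC2. The ratio was 27.0 (24.0 to 30.5). The 59 cells held 41.3% of all Ccr7 UMIs of the LCWE library while holding 1.06% of its UMIs. The next classes in order were B cells at 699 CPM, naive CD8 T cells at 296 and naive CD4 T cells at 289, lymphocytes that use the same receptor to enter lymph nodes. Fscn1 stood at 2110 CPM in DC3 against 39.0 in DC2, a ratio of 54.1 (42.7 to 69.6). One DC2 cell held 45 of the 74 Fscn1 UMIs of DC2. Without the 12 DC2 cells that had 10 or more Ccr7 UMIs, the log2 ratio of Fscn1 was 7.39 in place of 5.76 and that of Ccr7 6.10 in place of 4.76, and without the cells with 2 or more T or B cell marker UMIs that of Fscn1 was 7.68. Its next highest class was the blood endothelial cells (BEC) at 114. Zbtb46 stood at 82.4 CPM in DC3, 29.0 in DC2 and 23.2 in blood endothelial cells. On the mouse build GRCm38, Ccr7 lies at chr11:99144196-99155077, Fscn1 at chr5:142960343-142973185 and Zbtb46 at chr2:181387762-181459426.

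Shares of cells with a UMI were compared at equal depth. With every cell thinned to 1000 UMIs, 96.6% of DC3 cells still had a Ccr7 UMI, against 8.72% of DC2, 1.78% of Mono1 and 2.48% of Mac1 cells. Without thinning the shares were 98.3% in DC3, 26.7% in DC2, 8.19% in Mono1 and 7.09% in Mac1. Fscn1 was found in 72.9% of thinned DC3 cells, 2.56% of DC2 cells and 0.270% of 1480 T cells, which should lack the gene and so give the level of free RNA. Zbtb46 was found in 5.08% of thinned DC3 cells and 3.08% of DC2 cells, shares whose intervals overlap (1.06 to 14.1% and 1.14 to 6.58%), so a difference was not detectable at that depth. Without thinning they were 49.2% in DC3 and 19.0% in DC2.

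**Figure D2:**
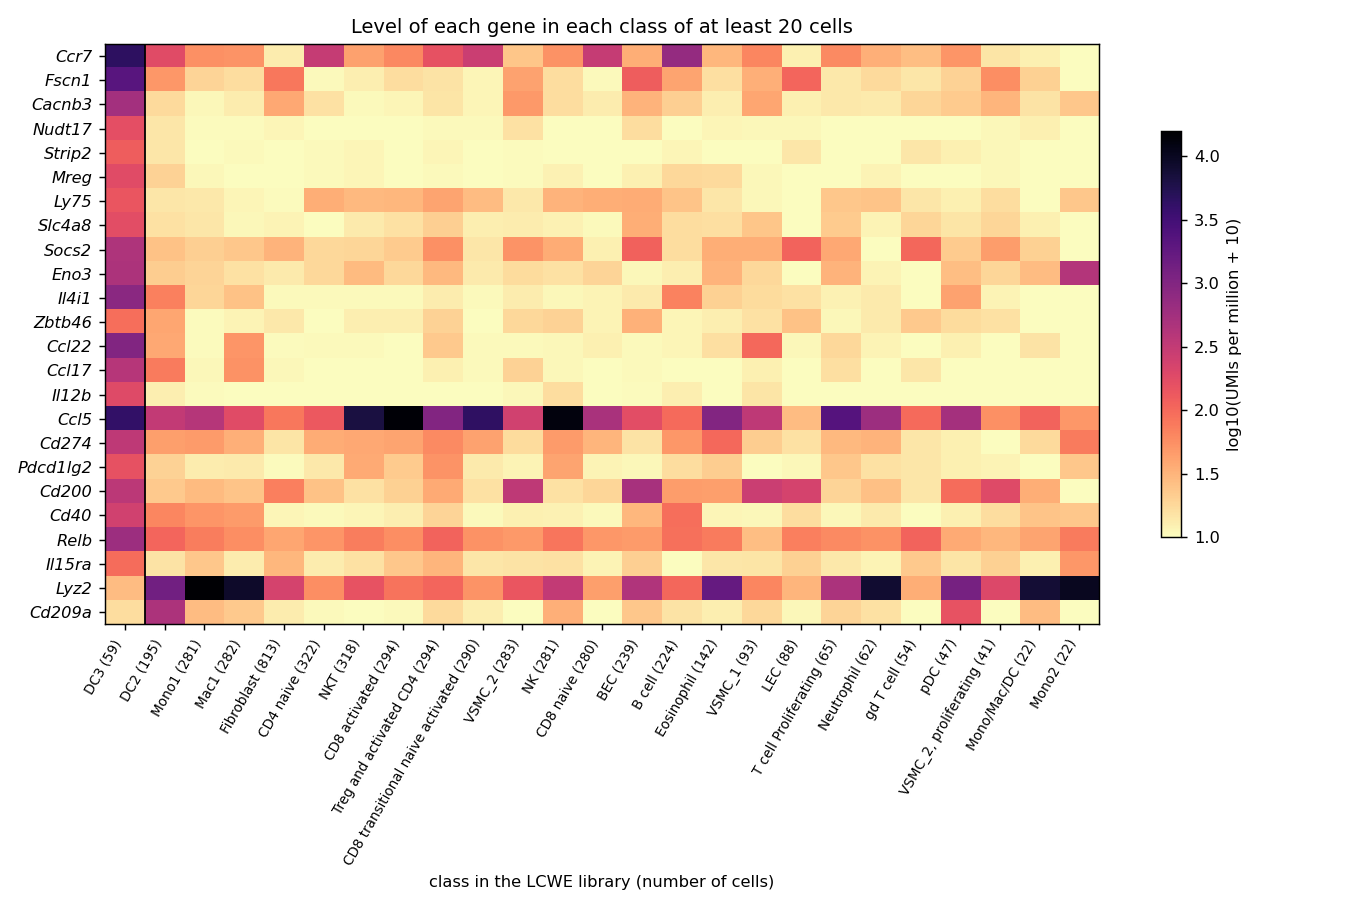
Level of 24 genes, as log10 of CPM plus 10, in each class of the LCWE library with at least 20 cells, DC3 at the left. The first rows are dark mainly in the DC3 column, Ccl5 is darker in activated CD8 T and NK cells, and Lyz2 and Cd209a are pale in DC3.

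The comparison across all genes asked how DC3 cells differed from DC2 cells, the most similar class by name. Of 7373 genes with at least 20 UMIs over both classes, 760 were at least 2-fold higher in DC3 (10.3%) and 1309 at least 2-fold lower (17.8%), with a median log2 ratio of -0.18. The counts of list members against DC2 given below are to be read beside these shares of all genes. Against all other mononuclear phagocytes, 1007 of 8938 genes were at least 2-fold higher in DC3 (11.3%) and 1673 lower (18.7%), with a median log2 ratio of -0.20. The authors' classes are clusters of these same cells, so the ratios describe the class and do not test it. The authors' name was checked against 22 markers of mature migratory dendritic cells. All 22 were at least 2-fold higher in DC3 than in DC2, with a median log2 ratio of 4.33, but the list was written with results of these data known and is no independent support.

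Of the named genes above DC2, the highest ratio was that of Gm13546, a gene without an approved name, with 62 UMIs in DC3 against 2 in DC2 (131 from these counts, 34.8 to 1107, and a log2 ratio of 6.45 with DC2 set to the floor of 3 UMIs that the ranking used). Cacnb3 followed, which encodes a subunit of voltage-gated calcium channels (chr15:98630840-98644529). It was seen in 50 DC3 cells and stood at 548 CPM in DC3 against 7.37 in DC2, a ratio of 74.3 (43.5 to 138). The muscle-type enolase Eno3 had a ratio of 38.8, and its level of 450 CPM in DC3 was followed by the 22 Mono2 cells at 409. Nudt17, a Nudix hydrolase, had a ratio of 37.0 (17.8 to 89.1). Anxa3, an annexin, had 32.3 (22.8 to 47.1). After Fscn1, given above, the remaining named genes were Ly75, the endocytic receptor DEC-205, at a ratio of 31.2, the adenosine receptor Adora2a at 30.5, Socs2 at 28.3, Pdlim4 at 28.1, the bicarbonate transporter Slc4a8 at 27.7 and Cd200 at 27.7. Strip2, Mreg and Il4i1 joined this set against all other mononuclear phagocytes, with ratios of 81.5, 67.7 and 34.4. Without the 12 DC2 cells with 10 or more Ccr7 UMIs the log2 ratio over DC2 was 7.32 for Cacnb3 in place of 6.22, 6.51 for Nudt17 in place of 5.21, 6.15 for Pdlim4 in place of 4.81, 6.13 for Slc4a8 in place of 4.79 and 5.71 for Socs2 in place of 4.83. The 59 cells held 66.2% of the library's Strip2 UMIs and 60.2% of its Mreg UMIs.

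The named genes below DC2 included lysozyme and several receptors of tissue phagocytes. Lyz2, the lysozyme of myeloid cells, had 8 UMIs over the 59 DC3 cells against 2558 over 195 DC2 cells, a 75.6-fold lower CPM. With cells thinned to 3000 UMIs, a Lyz2 UMI was found in 3.45% of 58 DC3 cells and 10.1% of 1212 T cells, so the DC3 share was not above the level of free RNA. Without thinning the shares were 13.6% and 14.9%. Cd209a, a DC-SIGN homologue and a marker of type 2 conventional dendritic cells, had 3 UMIs in 1 DC3 cell against 855 in DC2, a ratio of 0.0148 (0.00306 to 0.0435). Ccr2, the receptor that draws monocytes into tissue, had 2 UMIs against 527, and Clec10a, a lectin of type 2 cells, had 3 against 511. Alox5ap, needed for leukotriene synthesis, was 39.0-fold lower. Tm6sf1 and Ifitm6 had 0 UMIs in DC3 against 430 and 342 in DC2, and were at least 33.9-fold and 26.9-fold lower with the floor of 3 UMIs per class. Naaa, Ms4a6c, AF251705, Wdfy4 and Cd300a completed the 12. Against all other mononuclear phagocytes, the macrophage genes C1qb, C1qa, C1qc, Apoe and Spp1 were also among the lowest, with 2, 2, 1, 12 and 20 UMIs in DC3.

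**Figure D3:**
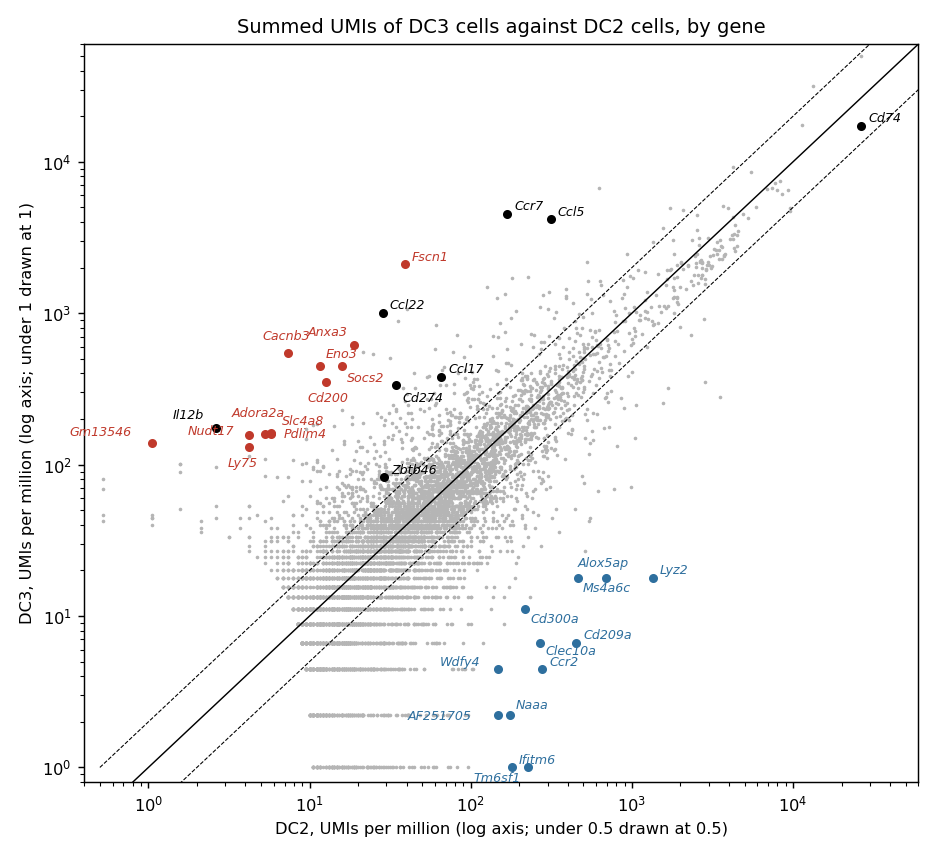
CPM in DC3 (vertical) against DC2 (horizontal) for the 7373 measured genes, both axes log. The solid line marks equal levels and the dashed lines 2-fold. Red genes are the 12 with the highest ratios, from Gm13546 to Cd200, blue genes the 12 with the lowest, from Lyz2 to Cd300a, and black genes are others named in the text.

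Genes of movement and the cytoskeleton were higher in part. Of 19 members measured, 8 were at least 2-fold higher in DC3 than in DC2 and 4 lower, with a median log2 ratio of 0.65. Of all genes 10.3% were higher and 17.8% lower, and the lower count of this list is near that share. Marcks, an actin-binding membrane protein, was found in all 59 DC3 cells with a lowest, median and highest cell of 1, 13 and 28 UMIs, against 0, 1 and 13 in DC2. Its ratio was 7.64 (6.79 to 8.61). Marcksl1 had a ratio of 4.54, the myosin Myo1g 4.71 and Poglut1, a glycosyltransferase, 17.3. Actin and thymosin genes stayed under 2-fold, with ratios of 1.54 for Actb and 1.90 for Tmsb4x. The adhesion genes Itgax and Cd44 were lower in DC3, at ratios of 0.124 and 0.350. Itgax encodes CD11c, a common surface marker of dendritic cells, and had 11 UMIs in 6 DC3 cells.

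Costimulatory genes were higher in part. Of 10 members measured, 5 were at least 2-fold higher in DC3 than in DC2 and 1 lower, with a median log2 ratio of 1.14. The shares of all genes were 10.3% higher and 17.8% lower. Cd40, the receptor through which helper T cells activate dendritic cells, had 0, 1 and 7 UMIs in the lowest, median and highest DC3 cell, against 0, 0 and 8 in DC2. Its level was 238 CPM in DC3 against 54.8 in DC2, a ratio of 4.35 (3.29 to 5.76). Cd80 had a ratio of 3.03 (1.95 to 4.69), Tnfsf4, the OX40 ligand, 2.91 (1.22 to 6.67), and the adhesion ligand Icam1 2.53 (1.95 to 3.27). Cd83 at 1.92 and Cd86 at 1.27 stayed under 2-fold. Icosl and Tnfsf9 had ratios of 1.25 and 0.913 with intervals that included 1. Relb, a transcription factor of dendritic cell maturation described with NF-κB below, was the fifth, and Cd48 was the member that was lower, at 0.246. Cd80 and Cd86 bind the same T cell receptors, and Cd86 stood at 352 CPM in DC3 against 277 in DC2. Cd70, the ligand of CD27, had 15 UMIs in 8 DC3 cells against 2 UMIs in DC2, too few together to count as measured.

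Inhibitory ligands and regulatory genes had the highest median against DC2 of the 18 gene lists. Of 12 members measured, 7 were at least 2-fold higher in DC3 than in DC2 and 3 lower, with a median log2 ratio of 2.32. Cd274, which encodes the inhibitory ligand PD-L1, had 0, 2 and 11 UMIs in the lowest, median and highest DC3 cell, against 0, 0 and 5 in DC2. Its level was 334 CPM in DC3 against 34.2 in DC2, a ratio of 9.76 (7.25 to 13.3). Pdcd1lg2, which encodes PD-L2, had a ratio of 15.5 (9.10 to 27.8). Of 59 DC3 cells, 52 had a Cd274 UMI, 44 a Cd40 UMI and 30 a Pdcd1lg2 UMI. Both PD-1 ligands were seen together in 29 DC3 cells and Cd274 together with Cd40 in 40. Transcripts of Cd40 and of an inhibitory ligand thus occurred in the same cells. Whether they did so more often than these separate counts give was not tested. Cd200, an inhibitory surface glycoprotein, reached 350 CPM in DC3, second to blood endothelial cells at 493. Il4i1, an amino acid oxidase that limits T cells, stood at 838 CPM in DC3 against 60.5 in DC2, and the 59 cells held 55.1% of its UMIs in the library. Fas was higher at a ratio of 8.89. The cytokine signalling inhibitors differed among themselves, with ratios of 28.3 for Socs2, 2.80 for Socs1 and 0.530 for Socs3. Tgfb1 and Lgals9 were lower, at 0.422 and 0.176, and Vsir had 3 UMIs in DC3 against 120 in DC2 (ratio 0.106, 0.0215 to 0.317). Pvr had a ratio of 1.81, and Ido1 had 0 UMIs in DC3.

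Most chemokine genes were lower in DC3 than in DC2. Of 13 members measured, 4 were at least 2-fold higher than in DC2 and 8 lower, with a median log2 ratio of -1.24, and against all other mononuclear phagocytes 4 of 16 were higher and 11 lower. The 4 higher than in DC2 were Ccl5, Ccl22, Ccl17 and Cxcl16. Ccl22 (chr8:94745590-94751699), which attracts CCR4-bearing T cells, had 0, 1 and 94 UMIs in the lowest, median and highest DC3 cell, against 0, 0 and 8 in DC2. It stood at 1007 CPM in DC3 against 28.4 in DC2 (ratio 35.4, 26.7 to 47.9), and DC3 cells held 59.4% of the library's Ccl22 UMIs. Ccl17, the other CCR4 ligand, had a ratio of 5.80 (4.57 to 7.37). The 6 cells with the most held 63.9% of the Ccl22 UMIs and 92.9% of the Ccl17 UMIs of the class. Ccl22 was found in 32 cells, 11 of which also had Ccl17, and 0 cells had Ccl17 alone.

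Ccl5, a chemokine that attracts T cells and monocytes, had 0, 18 and 234 UMIs in the lowest, median and highest DC3 cell, against 0, 0 and 94 in DC2. At 4159 CPM it was 13.3-fold higher in DC3 than in DC2 (12.1 to 14.6). Lymphocytes had more, with 14781 in activated CD8 T cells and 12953 in NK cells, and the 59 DC3 cells held 3.0% of the library's Ccl5 UMIs. Cxcl16 had a ratio of 3.33 and was found in 58 DC3 cells. The inflammatory chemokines Cxcl2, Cxcl10, Cxcl9, Ccl4 and Ccl6 were lower, at ratios of 0.115, 0.191, 0.313, 0.264 and 0.0886. Ccl9 at 0.438 and Ccl3 and Ccl2, with 4 and 2 UMIs in DC3 against 44 and 30 in DC2, were the remaining lower members, and Cxcl1 had a ratio of 1.32 (0.379 to 3.78). Among chemokine receptors, 2 of 10 members with enough UMIs were higher and 5 lower. The higher ones were Ccr7 and Cxcr5, the receptor of B cell follicles, with 23 UMIs in 18 DC3 cells against 3 UMIs in DC2 (ratio 32.4, 9.80 to 169). Ccr1, Ccr2 and Cx3cr1, receptors that guide cells into inflamed tissue, had 2, 2 and 0 UMIs in DC3 against 175, 527 and 103 in DC2, and Ccr9 had 0 against 26.

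Cytokine genes were mixed. Of 10 members measured, 4 were at least 2-fold higher in DC3 than in DC2 and 3 lower. Il12b, which encodes the p40 chain shared by interleukins 12 and 23, had 78 UMIs in DC3 against 5 in DC2. It was found in 8 DC3 cells, 1 of which held 48 of the 78 UMIs. Il12a had 0 UMIs in DC3 and Il23a had 0 as well. Il15, a cytokine for CD8 T and NK cells, had a ratio of 7.93 (3.16 to 21.6), and Il15ra, which presents it to other cells, 16.1 (7.86 to 36.2). Il1rn, the interleukin 1 receptor antagonist, had a ratio of 4.77 (3.75 to 6.06). Il1b, a cytokine central to this vasculitis model, was close to DC2 in level. Its lowest, median and highest cells had 0, 21 and 82 UMIs in DC3, against 0, 23 and 150 in DC2, with a ratio of 1.06 (0.997 to 1.12). Il6 had 10 UMIs in DC3 and a ratio of 2.49 (1.02 to 5.76). Tgfb1 was lower, as were Tnf, with 3 UMIs in DC3 against 47 in DC2 (ratio 0.270, 0.0538 to 0.839), and Il18, with 0 against 33.

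Of 23 receptors for cytokines with enough UMIs, 7 were at least 2-fold higher in DC3 than in DC2 and 5 lower, with a median log2 ratio of 0.05. The lower count is near the share of all genes (17.8%). The higher set held 3 tumour necrosis factor receptors, Tnfrsf9 at a ratio of 6.83, Tnfrsf4 at 6.29 and Tnfrsf11a, the receptor RANK, at 4.96. It also held Il2ra at 10.0, Il21r at 3.19 and Il7r at 2.57. The lower set held Ifngr1 at 0.219, the decoy receptor Il1r2 at 0.150, Csf1r at 0.0945, Crlf2 at 0.377 and Tnfrsf1a at 0.459. Flt3, the growth factor receptor of the conventional dendritic cell lineage, had a ratio of 1.77 over DC2 and 5.31 over all other mononuclear phagocytes.

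Genes of NF-κB signalling and of survival were higher in part, and none was 2-fold lower. Of 22 members measured, 11 were at least 2-fold higher in DC3 than in DC2 and 0 lower, with a median log2 ratio of 1.02. Genes linked to the non-canonical arm, in which the kinase NIK frees RelB and p52, were among those higher. Relb had a ratio of 6.12 (5.06 to 7.41), Nfkb2 2.86, Map3k14 (NIK) 2.26 and Traf3 3.19. Genes that promote and genes that restrain this arm are not told apart here, and its activity was not measured. Birc2, a ubiquitin ligase that inhibits apoptosis, had a ratio of 7.15 (5.81 to 8.82), Traf1 3.26, Birc3 2.56 and the survival genes Bcl2a1b and Bcl2a1d 3.66 and 3.05. The last pair are near-identical copies whose reads could be split between them. The canonical subunit Rel had a ratio of 2.53, while Nfkb1 and Rela were at 1.11 and 1.45. The feedback inhibitors Nfkbia and Tnfaip3 were at 1.61 and 1.49.

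The promoters of this list were searched for the NF-κB core GGANTTTCC on both strands in windows from 250 bases before to 50 after each start (RefSeq, GRCm38.p6). Of 22 members, 19 had a window, and 3 of these held a match (15.8%), against 1.45% of 27025 genes in the table. The named higher genes Cacnb3, Cd200, Eno3, Fscn1, Gm13546, Il4i1, Ly75, Mreg, Nudt17, Pdlim4, Slc4a8 and Strip2 had windows with 0 matches. The share of 15.8% thus describes this list and not the genes highest in DC3. The windows with a match are shown because their genes belong to this signalling system, with the match in capitals. Nfkb2 at chr19:46305445-46305744 (plus strand) had 1 match in the window shown, Nfkbia at chr12:55492598-55492897 (minus strand) 2, and Tnfaip3 at chr10:19015361-19015660 (minus strand) 1. Nfkb2 has 3 windows in the table. The 2 of them with a match overlap and hold the same site. Tnfaip3 has 2 windows, 1 of them with a match. Of these 3 genes, only Nfkb2 was past 2-fold in DC3. A match is a stretch of letters and was not tested for binding.
Nfkb2: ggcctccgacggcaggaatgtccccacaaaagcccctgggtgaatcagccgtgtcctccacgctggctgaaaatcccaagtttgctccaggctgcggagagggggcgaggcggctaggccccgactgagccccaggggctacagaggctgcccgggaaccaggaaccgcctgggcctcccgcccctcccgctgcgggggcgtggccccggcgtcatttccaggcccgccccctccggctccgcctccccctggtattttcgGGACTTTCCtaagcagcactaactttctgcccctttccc
Nfkbia: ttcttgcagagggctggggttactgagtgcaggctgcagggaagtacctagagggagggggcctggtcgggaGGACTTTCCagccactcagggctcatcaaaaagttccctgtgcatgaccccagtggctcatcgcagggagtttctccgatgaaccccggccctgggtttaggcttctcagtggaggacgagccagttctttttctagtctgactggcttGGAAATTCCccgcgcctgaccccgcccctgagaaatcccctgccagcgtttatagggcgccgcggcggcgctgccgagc
Tnfaip3: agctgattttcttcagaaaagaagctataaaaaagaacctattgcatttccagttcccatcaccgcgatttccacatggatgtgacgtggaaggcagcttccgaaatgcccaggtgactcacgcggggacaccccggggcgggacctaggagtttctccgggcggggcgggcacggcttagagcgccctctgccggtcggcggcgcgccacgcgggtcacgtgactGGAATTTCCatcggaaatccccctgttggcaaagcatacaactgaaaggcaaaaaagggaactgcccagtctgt

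Most listed genes of uptake and innate sensing were lower in DC3. The list does not hold Ly75, the endocytic receptor given above, which was higher in DC3. Of 19 members measured, 17 were at least 2-fold lower in DC3 than in DC2 and 1 higher, with a median log2 ratio of -2.39, and against all other mononuclear phagocytes 20 of 27 were lower and 0 higher. Tlr2, a receptor for bacterial lipoproteins, had 4 UMIs in DC3 against 183 in DC2 (10.8-fold lower, 4.15 to 40.1). Cybb, a subunit of the phagocyte oxidase, was 9.45-fold lower and Cd14 4.96-fold lower. The Fc receptors Fcgr3 and Fcgr1 had 1 UMI each in DC3 against 135 and 111 in DC2. Myd88, the adaptor of most Toll-like receptors, had a ratio of 0.191. Tlr13 was the member that was higher, with 10 UMIs in DC3 and a ratio of 3.02 (1.20 to 7.32). Of 13 lysosomal genes, 5 were lower in DC3 than in DC2 and 2 higher, the higher count being near the share of all genes (10.3%). Ctsa and Ctsd were lower at 0.229 and 0.365, Lamp1 was higher at 3.11, and Cst3, an inhibitor of cathepsins, was higher at 2.18.

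Against DC2, the class I and class II antigen presentation genes differed in direction. For MHC class I, 8 of 15 members with enough UMIs were at least 2-fold higher in DC3 than in DC2 and 0 lower, with a median log2 ratio of 1.01. H2-Q7 had a ratio of 5.62 (4.81 to 6.57), the proteasome activator Psme2 4.71 (4.18 to 5.30), Nlrc5, the transactivator of class I genes, 3.87, Tap2 2.49, Psmb8 2.39, H2-K1 2.33 and B2m 2.18. For MHC class II, 0 of 10 members were higher and 4 were lower, with a median log2 ratio of -0.95. H2-DMa and H2-DMb1, which load peptide onto class II, were 6.07-fold and 6.98-fold lower, and H2-Oa and H2-Ob, which restrain that loading, had ratios of 0.445 and 0.328. The class II chains H2-Aa, H2-Ab1 and H2-Eb1 and the invariant chain Cd74 were at ratios of 0.696, 0.510, 0.727 and 0.656. Against all other mononuclear phagocytes the class II median was 0.30, with 1 member higher and 2 lower. Against Mono1 and Mac1 the class II medians were 1.25 and 0.79, and the class I medians 1.30 and 1.70. The medians of all genes there were -0.21 and -0.22.

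The class II level varied widely between DC3 cells. Of every 10000 UMIs, H2-Aa, H2-Ab1, H2-Eb1 and Cd74 together took 10.3, 300 and 1183 in the lowest, median and highest DC3 cell, against 0, 603 and 1204 in DC2. Under 100 were found in 20 of 59 DC3 cells and in 12 of 195 DC2 cells, and 500 or more in 20 and in 121. The split into cells with more and less class II was chosen after this spread had been seen. The 20 cells with the most class II had 13 UMIs of Ciita, the transactivator of class II genes, and the 20 with the least had 0. H2-DMb1 had 56 and 1 UMIs in the same sets, H2-DMa 45 and 0, and H2-DMb2 54 and 0.

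Across the 59 cells and 2096 other genes seen in at least 20 of them, the Spearman correlation with the summed class II share was highest for H2-DMb1 (0.71) and H2-DMb2 (0.69) and lowest for Ccl5 (-0.68). These cells share a library and their values share a denominator, so the correlations are given without a test. Ccl5 stood at 999 CPM in the 20 cells with the most class II against 8954 in the 20 with the least. Fscn1 stood at 1217 against 2837, Irf8 at 354 against 1415 and Cst3 at 4997 against 15377. Il1b ran the other way, at 4357 against 1939. Ccl22 stood at 1515 against 479 but was found in 12 against 11 cells, 1 of the 12 held 94 of their 244 UMIs, and its correlation with class II was 0.16. Ccr7 stood at 4531 against 4791 and Cd274 at 385 against 382, close to each other at both ends. Total UMIs per cell had correlations of 0.19 with H2-DMb1 and -0.14 with Ccl5.

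**Figure D4:**
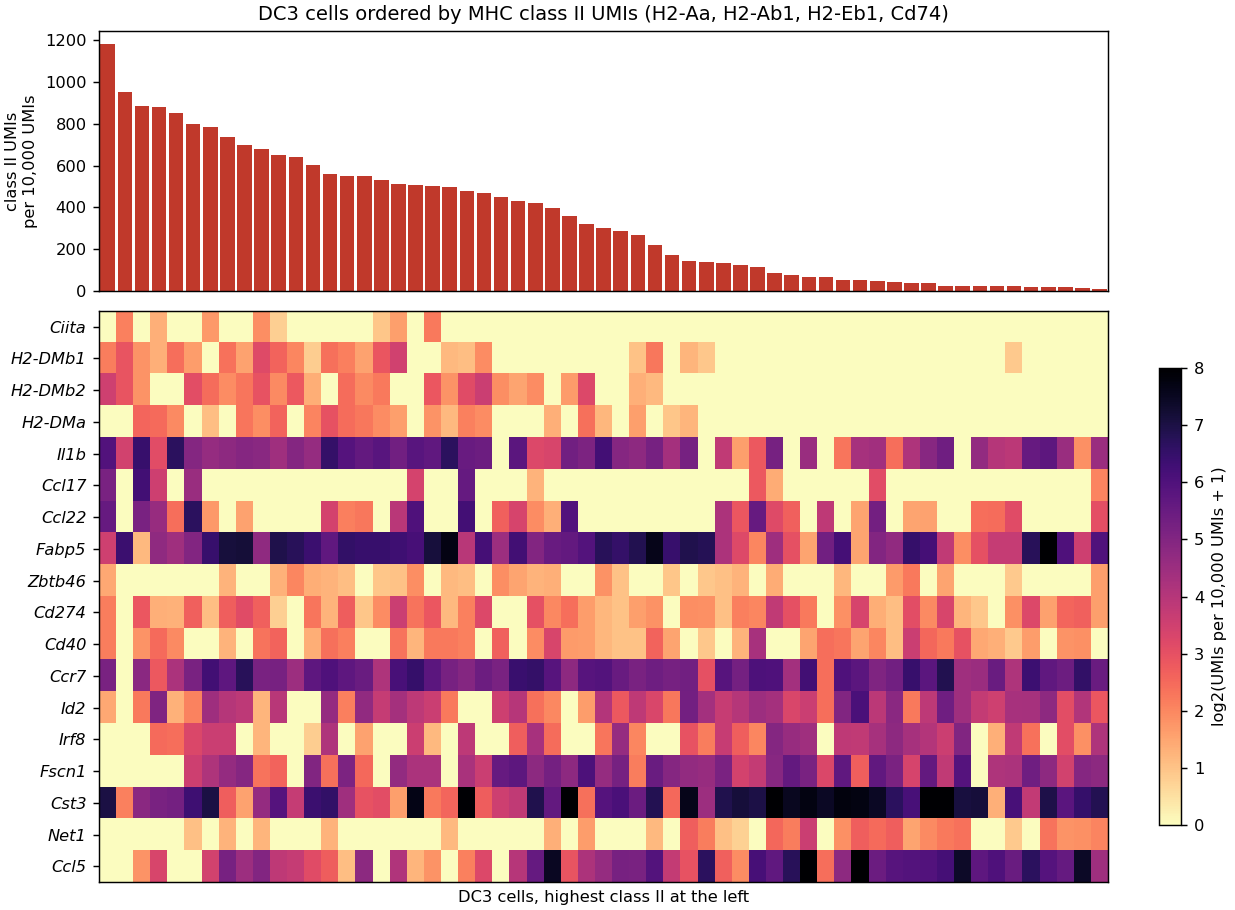
The 59 DC3 cells ordered by their class II UMIs per 10000 UMIs (bars, 1183 at the left to 10.3 at the right). Below, log2 of UMIs per 10000 plus 1 for 18 genes in the same cells. H2-DM genes and Ciita are near 0 at the right, Ccl5 is darker at the right, and Ccr7 is dark in most cells at both ends.

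Interferon response genes were mixed. For type I interferon 4 of 13 members with enough UMIs were at least 2-fold higher in DC3 than in DC2 and 5 lower. For interferon gamma 4 of 11 were higher and 5 lower, with a median log2 ratio of -0.93, which became 0.99 when every cell was thinned to 3000 UMIs. The higher members included the GTPases Gbp2 at a ratio of 4.50, Gbp5 at 4.23 and Mx1 at 3.72, and the transcription factor Irf1 at 2.73. The GTPases Irgm1 and Igtp, with 2 UMIs each in DC3 against 64 and 53 in DC2, and the chemokines Cxcl9 and Cxcl10 were lower.

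Transcription factors and lineage markers were mixed, with 7 of 20 factors at least 2-fold higher in DC3 than in DC2 and 2 lower. The lower count was not above the share of all genes (17.8%). Id2, a transcriptional regulator needed by type 1 conventional dendritic cells in mice, had a ratio of 8.20 over DC2 (7.14 to 9.44), Irf8 4.64, Etv3 3.48, Batf3 3.07, Zbtb46 2.85, Nfil3 2.40 and Stat3 2.02. Batf had 3 UMIs in DC3 against 74 in DC2 (ratio 0.172, 0.0346 to 0.521). Ikzf1 was lower at 0.488, and Irf4, the factor of type 2 cells, had a ratio of 1.10 (0.563 to 2.00). Irf8 and Batf3 are factors of type 1 cells. Xcr1 and Clec9a, the defining receptors of that type, had 0 UMIs in all 59 DC3 cells. Of type 2 markers, Cd209a, Clec10a or Mgl2 had a UMI in 5 of 59 DC3 cells, against 138 of 195 DC2 cells. The DC2 class itself held 22 cells with an Xcr1 or Clec9a UMI. The lineage from which the DC3 cells came was not tested.

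**Figure D5:**
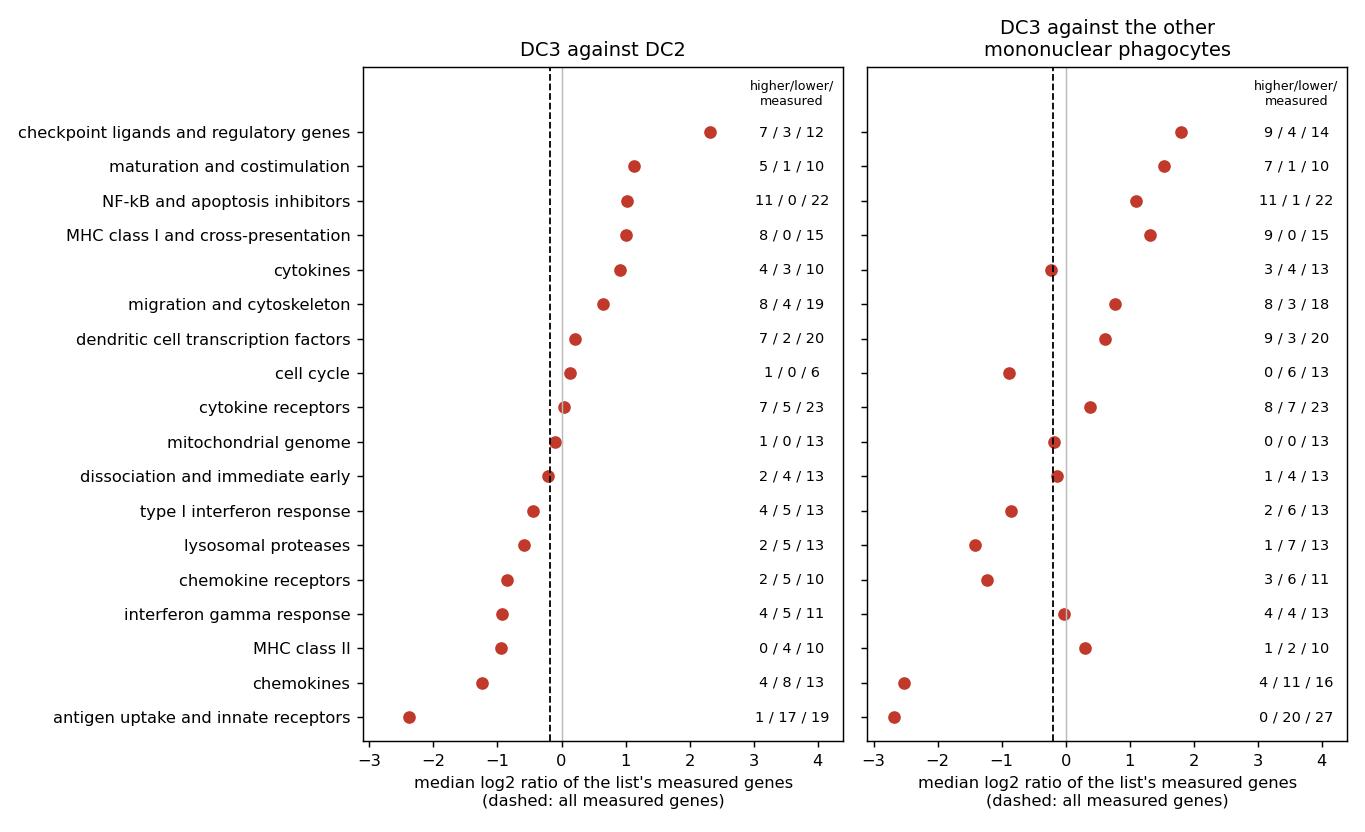
Median log2 ratio of DC3 over DC2 (left) and over all other mononuclear phagocytes (right) for 18 gene lists, with the numbers of members at least 2-fold higher, lower and measured. The dashed line is the median of all measured genes (-0.18 and -0.20). Checkpoint, costimulation, NF-κB and class I lists lie to its right, and chemokine and uptake lists to its left, in both panels.

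Genes that respond to tissue handling were compared as well. Of 13 mitochondrial genes, 1 was at least 2-fold higher in DC3 than in DC2 and 0 lower, and the median share of mitochondrial UMIs was 3.04% in DC3 cells and 3.79% in DC2 cells. Of 13 genes induced by dissociation, 2 were higher and 4 lower, with Fos at a ratio of 0.403 and Hspa1b at 4.67. For both sets, the shares over all genes were 10.3% higher and 17.8% lower. Of cycling genes, a Mki67 UMI was found in 6 and a Top2a UMI in 4 of 59 DC3 cells. Of 6 cell cycle genes measured against DC2, 1 was at least 2-fold higher in DC3 and 0 lower, with a median log2 ratio of 0.13. Against the other mononuclear phagocytes 0 of 13 were higher and 6 lower, with a median of -0.88. Of all genes in that comparison 11.3% were higher and 18.7% lower.

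Marker lists of other cell types were summed over DC3 cells, and their part in the results was not tested. Of 13 macrophage markers 4 were at 0, among them Mrc1 and Mertk, and the summed level was 109 CPM in DC3 against 710 in DC2. Monocyte markers stood at 2780 CPM in DC3 against 4771 in DC2, with 2 of 12 at 0 in DC3. Fibroblast markers stood at 535 CPM in both, and smooth muscle markers at 51.2 CPM in DC3 against 44.2 in DC2. Endothelial markers had 9 UMIs in DC3 against 70 in DC2. The list for type 3 innate lymphoid cells stood at 1889 CPM in DC3 against 753 in DC2, with 5 of its 8 members at 0 in DC3, and Tmem176a made up 730 of its 848 UMIs. Markers of type 1 conventional dendritic cells stood at 933 CPM in DC3 against 690 in DC2, with 5 of 12 at 0 in DC3. Irf8 alone made up 338 of their 419 UMIs in DC3. Of 11 type 1 markers measured, 2 were at least 2-fold higher in DC3 than in DC2 and 7 lower. Their median log2 ratio was -1.14. Markers of type 2 cells stood at 546 CPM in DC3 against 2198 in DC2. Markers of plasmacytoid dendritic cells stood at 474 CPM in DC3 against 770 in DC2, neutrophil markers at 75.7 against 318, and markers of mast cells and basophils at 80.2 against 62.1, with 7 of 8 at 0 in DC3. B cell markers had 4 UMIs in all. T cell markers had 60 UMIs, 38 of them in 1 cell, and 4 cells had 2 or more. NK cell markers had 155 UMIs, 87 of them in 1 cell, and were seen in 6 cells. They stood at 345 CPM in DC3 against 154 in DC2. Leaving out cells with 2 or more T or B cell marker UMIs from both classes left 753 genes higher and 1319 lower than in DC2. NK cell markers were not used in that step, and a DC3 cell with 27 NK cell marker UMIs stayed in.

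Some DC2 cells had DC3 marker genes. Of 195 DC2 cells, 52 had a Ccr7 UMI, 19 had 5 or more and 12 had 10 or more, and these 12 held 203 of the 319 Ccr7 UMIs of DC2. Only 3 of the 19 had an Fscn1 UMI. Among DC3 cells 56 of 59 had 5 or more Ccr7 UMIs. A separate clustering of the 908 mononuclear phagocytes gave 15 clusters, and the one with most DC3 cells held 54 of the 59 together with 2 DC2 cells.

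Among the 10 genes whose levels over the 23 classes with at least 40 cells followed Ccr7 most closely were Il21r (Pearson r of log2 of CPM plus 10, 0.78), D930015E06Rik (0.78), Birc2 (0.77), Mkl1 (0.77), Cd274 (0.74), Ly75, Fam60a, Psme2 and Etv3 (0.73 each). The DC3 class is the highest point for Ccr7 and is one of the points of each correlation, and no test was made.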

How the data were processed

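Both libraries are 10x Genomics 3′ libraries (V3 chemistry) made from enzyme-digested aortas after removal of dead cells, per the labels' protocols. The submitters' processing notes name Cell Ranger 3.0.2 and mm10. The authors deposited a matrix of unnormalized UMI counts and a table with each cell's class, its percent of mitochondrial UMIs and a doublet score. That deposited percent and the totals equalled those recomputed from the counts. The doublet score was not used to remove cells, and the authors' own doublet and dead-cell calls are negative for all cells in that table.

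Class levels are the UMIs of all its cells as CPM of the class total. Ratios of DC3 over another class carry exact conditional binomial intervals, levels exact Poisson intervals and shares Clopper-Pearson intervals, all 95% and for counting error only, since 1 library was made per treatment. A gene was measured with at least 20 UMIs over both classes. For calls, ranks and medians a class under 3 UMIs entered at a floor of 3, while a ratio printed for 1 or 2 UMIs uses the counts themselves, and where this floor lay above the other class no ratio was given (0 genes against DC2, 1532 against the other mononuclear phagocytes), a rule added after the data were seen. The separate clustering used scanpy with 2000 variable genes, 30 principal components, 15 neighbours and the Leiden method. No tests were run.

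Named genes were the 12 highest and 12 lowest ratios in each comparison. They needed at least 50 UMIs in the higher class, an interval wholly beyond 2-fold and at most 20% of those UMIs in any 1 cell. Sex-linked, ribosomal, mitochondrial, globin and antigen receptor genes were not ranked. Added to these were up to 6 members of each of 18 gene lists and all measured members of the chemokine, checkpoint and costimulation lists. Other list members, the context genes of the closing section and the look at class II within DC3 were picked after values were seen. The cells, lists and markers were chosen with earlier results of these data known. Of the list members, 4 were not matched in the files, and of 15 marker lists 5 members. Positions are from GENCODE vM21. The comparison was run on simulated Poisson counts with set folds. Such counts follow the model that the intervals assume and hold no variation between cells or libraries, so they cannot test for it. Python 3.11.15, numpy 2.4.6, scipy 1.17.1, pandas 2.3.3 and scanpy 1.11.5 were used. Some genes that these rules name are not reported here.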

Additional observations from a re-analysis of the deposited data

How the results depend on the processing

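No paired analysis was possible because each treatment has 1 library. Raising the minimum to 50 UMIs left 485 of 4935 genes at least 2-fold higher in DC3 than in DC2 (9.83%) and 865 lower (17.5%). These shares are close to the 10.3% and 17.8% of the main comparison. Dropping the minimum gave 1293 of 8743 genes higher (14.8%). Thinning every cell to 3000 UMIs, which kept 58 DC3 cells, left 871 of 4390 genes lower than in DC2 (19.8%). Against the other mononuclear phagocytes it left 1010 of 6485 lower (15.6%). Fewer genes were measured in both comparisons. With a 3-fold threshold 359 genes were higher (4.87%) and 519 lower (7.04%) than in DC2. Against the other mononuclear phagocytes 528 were higher (5.91%) and 759 lower (8.49%). The other 36 of 45 recomputed counts and shares of DC3 cells were within 1.5 times of the value reported or within its interval, among them the cluster made here, equal cell weights, the median-ratio scaling, cells over 10% mitochondrial UMIs left out, and, chosen after seeing the data, DC2 without its 12 cells with 10 or more Ccr7 UMIs or without its 13 cells with 2 or more Xcr1 and Clec9a UMIs. The median-ratio scaling shifted all log2 ratios by 0.11 against DC2 and 0.14 against the others. Of 628 recomputed list medians 594 moved by less than 1.5-fold, and of 618 recomputed ratios of named genes 552 stayed in their interval. Thinning to 3000 UMIs, which leaves fewer UMIs above the floor, moved the log2 ratio over DC2 of Gm13546 to 5.09, Cd209a to -4.72, Ccr2 to -4.04, Clec10a to -4.08, Tm6sf1 to -3.64 and Ifitm6 to -3.61. Without the DC2 cells with 2 or more Xcr1 and Clec9a UMIs, Naaa stood at -3.60 in place of -4.71 and Wdfy4 at -3.72 in place of -4.46. Without cells with 2 or more T or B cell marker UMIs, Ly75 stood at 6.16 in place of 4.96, Cd200 at 5.52 in place of 4.79 and Ccl5 at 4.34 in place of 3.73. Near-zero medians changed sign under some alternatives, such as cytokine receptors against DC2 (-0.08 to 0.09) and cytokines against the others (-0.37 to 0.46). Some larger medians did so as well, each under 1 alternative. Cell cycle genes against the others had a median of -0.88, with alternatives from -1.02 to 0.70. Interferon gamma genes against DC2 had -0.93, with alternatives from -1.04 to 0.99. The shares of cells with a UMI depended on depth, with 42 of 52 outside the interval of the value at 1000 UMIs.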

Other observations

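Partners of DC3 genes were found in other classes of the LCWE library, in genes chosen after values were seen. Ccl21a, a ligand of CCR7, had 14040 UMIs in the 88 lymphatic endothelial cells (LEC), or 15858 CPM, and DC3 cells stood sixth among the classes. The DC3 level was not compared with a level of free RNA, so this rank does not show that DC3 cells make Ccl21a. Ccl19, the other CCR7 ligand, had 307 UMIs in fibroblasts, or 30.7 CPM, and 0 in DC3. Ccr4, the receptor for CCL17 and CCL22, was highest in the class of regulatory and activated CD4 T cells, with 32 UMIs. Pdcd1, the receptor for PD-L1 and PD-L2, had its highest level in gamma delta T cells at 299 CPM, followed by regulatory and activated CD4 T cells at 215, and Ctla4, the receptor for CD80 and CD86, was highest in that CD4 class at 640 CPM. Whether these cells meet DC3 cells in the aorta was not measured.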
